A study of Mus musculus with 12 samples.

Results

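Meis1 and Meis2 encode homeodomain proteins that act as cofactors of Hox proteins. Their peaks are described here across 12 ChIP-seq peak lists from mouse embryonic stem (ES) cells and their neural derivatives. Every peak whose nearest gene was given as Meis1 or Meis2 in the deposited annotation was taken, at any distance from the transcription start site (TSS). These were 53 of 76731 peaks, made up of 30 of 10124 peaks of RXR, the retinoid X receptor, and 23 of 66607 peaks of histone H3 acetylated at lysine 27 (H3K27ac). The 2 genes are among 14490 named in any list. Meis1 held 19 RXR and 18 H3K27ac peaks, and Meis2 held 11 and 5. RXR peaks of different lists that overlapped by at least 1 bp were joined into 13 sites, 8 of Meis1 and 5 of Meis2. A site is called here by its distance from the TSS, positive into the gene and past its end.

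MEIS proteins belong to the TALE class of homeodomain proteins and bind DNA together with PBX and Hox proteins, so that a Hox protein gains affinity and choice of site. Both genes are expressed in the developing hindbrain and limb, and Meis2 was isolated from embryonal carcinoma cells as a gene induced by retinoic acid. RXR pairs with other nuclear receptors on repeats of a short hexamer. With RAR, the retinoic acid receptor, it forms the pair through which retinoic acid acts on its target genes.

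RXR and H3K27ac were each mapped in wild-type E14 ES cells, a mouse line grown here without feeder cells and with LIF. In both series of ES libraries there was a control, for which the treatment protocol names dimethylsulfoxide as vehicle, and 1 library each after 24 h with GW3965, LG268 or RA at 1 µM. GW3965 is an agonist of the liver X receptor, LG268 of RXR, and RA is all-trans retinoic acid, the ligand of RAR. A neural differentiation gave 2 further RXR libraries at day 8 and 2 at day 16. For this the cells were aggregated to embryoid bodies without LIF, given RA at 5 µM and plated in N2 medium, while the labels still name the source as ES cells.

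The RXR lists held 409 to 2089 peaks and the H3K27ac lists 12472 to 21418. Read totals were not given, so depth is unknown and intervals on shares cover counting error only. With 1 library per ES condition there is no replicate check on any ES difference. Nothing in the labels tells whether the 2 libraries of a day come from different cultures, so the SD given may be purely technical. Of 10 ES cell marker genes, 7 had an H3K27ac peak within 100 kb of the TSS in the control, and Pou5f1, Sox2 and Lin28a had one within 1 kb. That count was 7 with GW3965, 4 with LG268 and 5 with RA. Of 10 neural markers it was 6, 6, 3 and 4 in the same order, of 5 endoderm markers 2, 2, 1 and 2, and of 5 mesoderm markers 2, 0, 0 and 1. All libraries come from bulk cells, so a site bound in few cells and one bound weakly in all cannot be told apart.

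RXR peaks at the 2 genes were found mainly with RA in ES cells and at day 8. The control list held 1 such peak, at Meis1, of 1089 (0.0918%, exact Clopper-Pearson 95% interval 0.00233 to 0.511). With LG268 there were 4 of 2089 (0.191%, 0.0522 to 0.489), 2 at each gene. With RA there were 7 of 1970 (0.355%, 0.143 to 0.731), 4 at Meis1 and 3 at Meis2. The GW3965 list held 0 of 940, which allows a share of up to 0.319%. The day 8 replicates held 7 of 1154 (0.607%, 0.244 to 1.25) and 11 of 2044 (0.538%, 0.269 to 0.961). The day 16 replicates held 0 of 429 and 0 of 409, which allows up to 0.699% and 0.733%. The intervals of LG268, RA and day 8 overlap each other and that of the control.

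**Figure D1:**
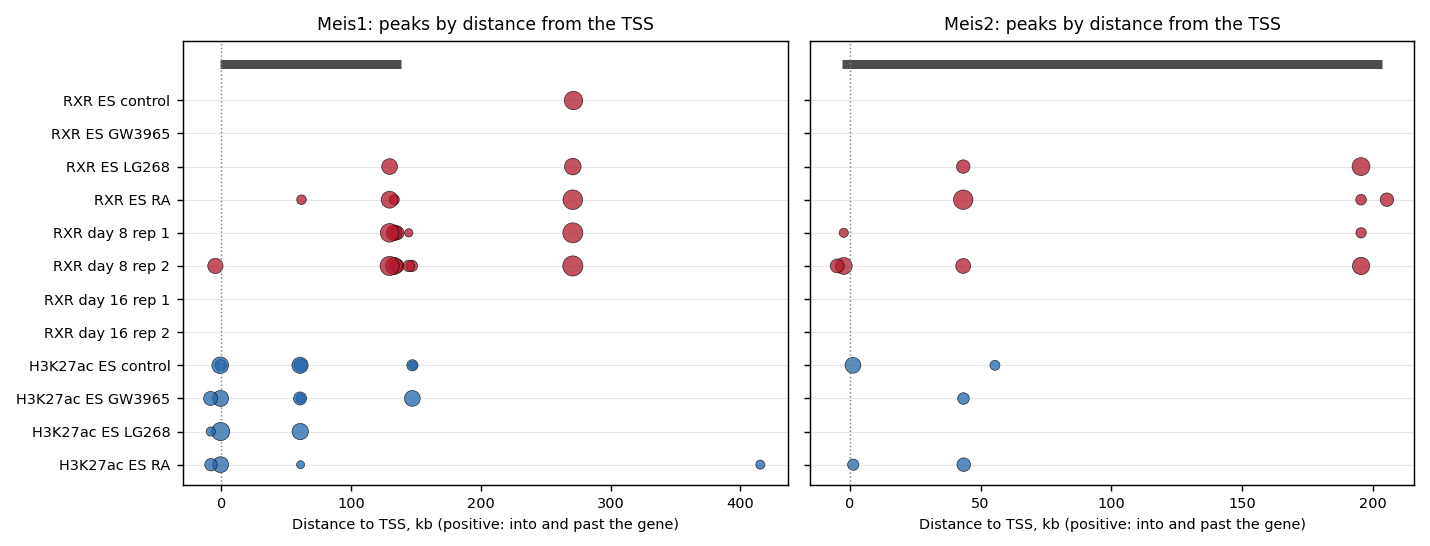
Peaks of Meis1 (left) and Meis2 (right) by distance from the TSS in kb, with 1 row per list; red points are RXR peaks, blue points H3K27ac peaks, larger points a higher score percentile within the list, and the grey bar is the gene. RXR peaks stand in 5 of the 8 RXR lists, with none in the GW3965 and day 16 lists. No RXR peak lies within 1 kb of the TSS of the deposited annotation.

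These counts stand beside those of all genes. Of the 14490 genes, 6.89% had an RXR peak in the control, 5.99% with GW3965, 12.4% with LG268 and 11.9% with RA. At day 8 the shares were 6.31% and 10.8%, and at day 16 they were 2.33% and 2.19%. Both genes had a peak with LG268, with RA and in each day 8 replicate, and neither had one at day 16. Among 1720 genes with an RA peak, 13 (0.756%) had 4 or more as Meis1 did, and 40 (2.33%) had 3 or more as Meis2 did. In the second day 8 replicate, 12 of 1571 genes (0.764%) had 7 or more as Meis1 did. In the first, 13 of 914 (1.42%) had 5 or more. As many peaks as Meis2 were had by 135 of 914 genes (14.8%) in the first day 8 replicate and by 43 of 1571 (2.74%) in the second. With LG268, 218 of 1804 genes (12.1%) had at least the 2 peaks that each gene had. A gene with distant neighbours can collect more nearest-gene peaks. Meis1 lies 926.6 kb from Etaa1 and 904.8 kb from Spred2, and Meis2 lies 82.5 kb from BC052040 and 811.2 kb from Tmco5. The part of these distances in the counts was not tested.

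By the deposited distances the sites were distal. No RXR peak of either gene lay within 1 kb of its annotated TSS. In RefSeq, however, long non-coding RNAs start inside the Meis1 +271 kb and Meis2 -2.2 kb sites, as described below. The RefSeq span of Meis2, on the minus strand, starts at 116067537, upstream of the deposited TSS. The Meis2 -2.2 kb site (116067158 to 116067413) lies just inside that start, so it is distal by the deposited TSS only. Over all peaks the share within 1 kb of the annotated TSS was 26.6% in the control, 28.2% with LG268 and 26.9% with RA. At day 8 it was 10.3% and 16.7%. In the lists without a peak of the 2 genes that share was 10.3% with GW3965 and 8.16% and 4.4% at day 16. More than 100 kb from the TSS lay the control peak, 3 of 4 LG268 peaks, 5 of 7 RA peaks, and 6 of 7 and 7 of 11 day 8 peaks. Over all peaks those shares were 15.6%, 15.4%, 15.8%, 30.2% and 22.8%, and 16.7% with GW3965 and 35.7% and 36.9% at day 16. The peaks within 100 kb therefore numbered 1 with LG268, 2 with RA, and 1 and 4 at day 8.

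The site of Meis1 found in the most lists lay at +271 kb, in intergenic sequence past the 3′ end of the gene. Meis1 is on the minus strand of chromosome 11 (18880428 to 19019651 in GRCm38.p6, the assembly of mm10). The site spans chromosome 11, 18747924 to 18748427, over all lists, and its peak centres lay within 32 bp of each other. In RefSeq, the start of Gm31674, a long non-coding RNA on the plus strand, lies at 18748080, inside all 5 peaks of this site and 73 to 105 bp from their centres. The 300 bases around that start are shown because they hold the RNA start and part of the stretch common to all 5 peaks. The peak centres lie outside these bases. They are RefSeq sequence of GRCm38.p6, chr11:18747830-18748129, plus strand, and capitals mark the 83 bases that lie inside the peak of every list that has one.
Gm31674 start: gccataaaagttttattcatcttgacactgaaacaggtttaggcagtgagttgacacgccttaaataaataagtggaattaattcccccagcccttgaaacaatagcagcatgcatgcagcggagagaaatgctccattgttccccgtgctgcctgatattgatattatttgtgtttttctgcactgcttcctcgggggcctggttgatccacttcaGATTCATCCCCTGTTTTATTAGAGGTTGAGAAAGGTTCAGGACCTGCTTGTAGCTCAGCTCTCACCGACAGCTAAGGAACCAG

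That window holds 1 nuclear receptor hexamer, GGTTCA, at bases 251 to 256 (chromosome 11, 18748080 to 18748085), within the capitals. The search covered AGGTCA or AGTTCA or GGGTCA or GGTTCA on both strands, singly and as direct repeats with 1, 2 or 5 bases between (DR1, DR2, DR5). It also covered the MEIS core TGACAG and the HOX-PBX core TGATTNAT. Of 32544 RefSeq promoter windows of that length 43.7% hold a hexamer, 0.224% a DR1, 0.270% a DR2, 0.0983% a DR5, 19.1% TGACAG and 3.23% TGATTNAT. None of the repeats or cores is in the Gm31674 window, and none of the motifs is in the windows at the starts of Meis1 and Meis2. The part of the site past the window, which holds the peak centres, was not searched.

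At +271 kb the control peak (18748047 to 18748324) had a score of 14.7 and rank 208 of 1089. The score is the authors' value, read here within a list, as its scale between libraries is not stated. The LG268 peak had a score of 8.28 and rank 774 of 2089, and the RA peak 25.6 and rank 137 of 1970. At day 8 the scores were 86.2 (rank 29 of 1154) and 112.8 (rank 23 of 2044), with a mean of 99.5 ± 18.8 (SD, n = 2). The site thus stood in the top 1.82 ± 0.981% (SD, n = 2) of the day 8 lists and the top 6.95% of the RA list. In the LG268 list it stood in the middle ranks, and it had no peak with GW3965 or at day 16. It was the highest-scoring RXR peak of Meis1 in each of the 5 lists where Meis1 had one.

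**Figure D2:**
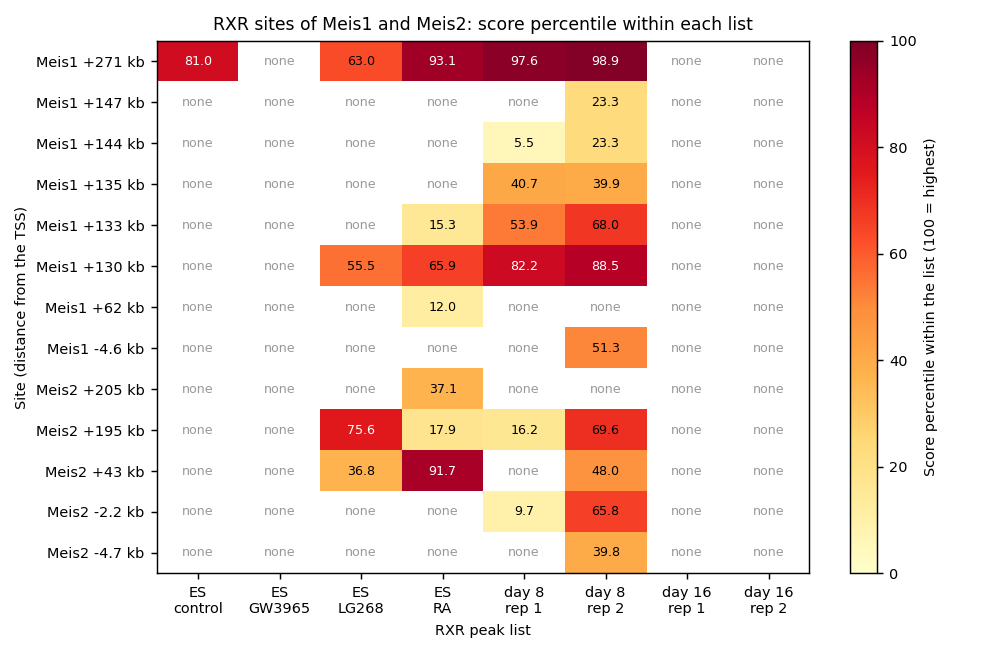
Score percentile within each RXR list (0 lowest, 100 highest, by colour and number) for the 13 sites (rows, by distance from the TSS) and the 8 lists (columns); "none" marks a list without a peak at the site. The +271 kb site of Meis1 is filled in 5 lists and reaches 97.6 and 98.9 at day 8, while the GW3965 and day 16 columns are empty.

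RXR sites within or just past the 3′ part of Meis1 lay close together and stood highest within their lists at day 8. The +130 kb site lies in intron 9 of 12 (chromosome 11, 18889151 to 18889478, centres within 44 bp). Its scores were 7.31 with LG268 (rank 930 of 2089), 9.20 with RA (rank 672 of 1970), and 26.7 and 37.4 at day 8 (ranks 206 of 1154 and 235 of 2044). The control list had no peak there. The day 8 mean was 32.1 ± 7.56 (SD, n = 2), in the top 14.7 ± 4.49% of the lists. The neighbouring +133 kb site, in the same intron (18885649 to 18885924), had a score of 4.31 with RA, at rank 1670, and 10.6 and 15.99 at day 8. At +135 kb, in intron 11 of 11 of another transcript (18883554 to 18883721), peaks were found at day 8 only, with scores of 7.93 and 8.0. The +144 kb site, past the end of the gene (18874488 to 18874686), likewise had day 8 peaks only, with scores of 3.41 and 5.82. In both day 8 replicates the scores went down in the order +130, +133, +135 and +144 kb.

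The other 3 Meis1 sites were each in 1 list. The second day 8 replicate alone had a peak at +147 kb (18872134 to 18872355, score 5.82, rank 1568) and at -4.6 kb (19023487 to 19023672, score 10.3, rank 996). The RA list alone had one at +62 kb in intron 7 of 12 (18957100 to 18957316, score 4.19, rank 1735 of 1970). These stood in the middle or low ranks of their lists.

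At Meis2 the highest RA peak lay inside the gene. Meis2 is on the minus strand of chromosome 2 (115861264 to 116067537). The +43 kb site lies in intron 7 of 12 (116021091 to 116021364, centres within 18 bp). With RA its score was 23.4 at rank 165 of 1970, in the top 8.38% of the list. With LG268 it was 5.76 at rank 1322 of 2089, and in the second day 8 replicate 9.51 at rank 1064 of 2044. The control, GW3965, first day 8 and both day 16 lists had no peak there.

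The +195 kb site of Meis2, in intron 9 of 12 (115869176 to 115869472), was found in 4 lists. Its score was 10.7 with LG268 (rank 511 of 2089), 4.63 with RA (rank 1618 of 1970), and 4.82 and 16.2 at day 8 (ranks 968 of 1154 and 622 of 2044). The day 8 mean was 10.5 ± 8.05 (SD, n = 2), and the replicates were far apart. With RA the +43 kb site stood above the +195 kb site, and with LG268 and in the second day 8 replicate the order was the other way round. The +195 kb peak was also the highest LG268 peak of either gene. This exchange of order rests on single libraries and was not tested.

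Near the start of Meis2 the peaks were from day 8 alone. The -2.2 kb site (116067158 to 116067413) is intergenic in the files. It lies just inside the start of the RefSeq span of Meis2, at 116067537 on the minus strand. It had scores of 4.11 (rank 1043 of 1154) and 14.5 (rank 699 of 2044), a mean of 9.29 ± 7.32 (SD, n = 2). The -4.7 kb site (116069708 to 116069877) had a score of 7.98 in the second replicate only. The remaining site, at +205 kb past the end of the gene (115859358 to 115859530), was in the RA list only, with a score of 6.11 at rank 1241. As at the +271 kb site of Meis1, a long non-coding RNA starts inside the -2.2 kb site. G630016G05Rik, on the plus strand, starts at 116067225 in both day 8 peaks, 50 to 60 bp from their centres. The 30 bases shown (RefSeq, GRCm38.p6, chr2:116067210-116067239, plus strand) hold the hexamer GGTTCA in capitals, the only motif found in its window.
G630016G05Rik start: agccgGGTTCAccctgccgccaccaggcag

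**Figure D3:**
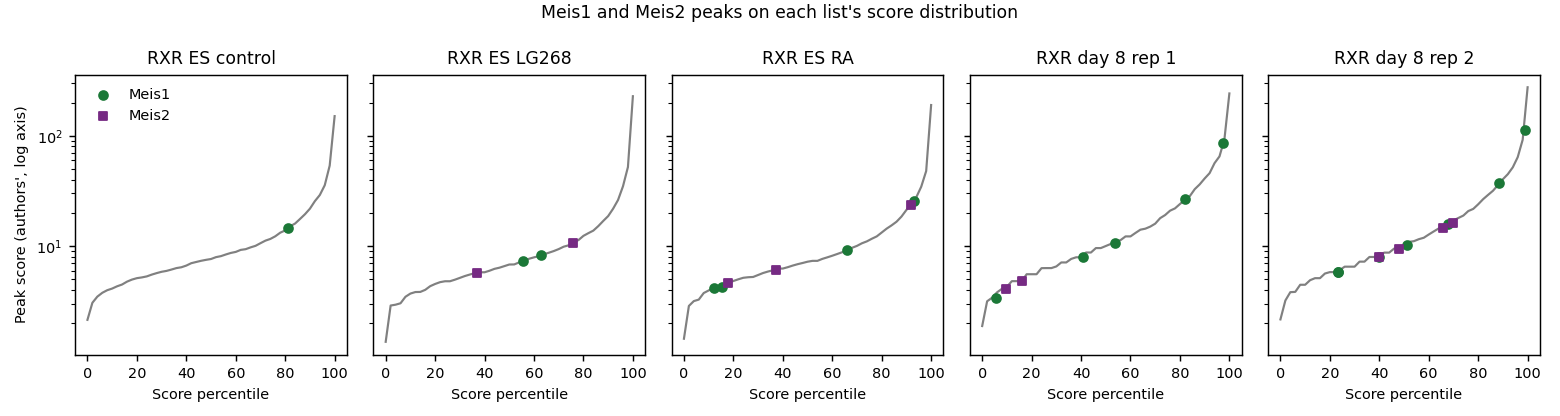
Peak score (authors' value, log axis) against score percentile for all peaks of 5 RXR lists (grey line), with the peaks of Meis1 as green circles and of Meis2 as purple squares. Peaks of Meis1 reach the steep top of the curve at day 8 (86.2 and 112.8), where Meis2 stays at or below 16.2, and with RA the highest peaks of both genes lie side by side at 25.6 and 23.4.

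The highest peak of each gene gives an order of the lists by percentile within the list. For Meis1 the order was day 8 (97.6 and 98.9), RA (93.1), control (81.0) and LG268 (63.0), with no peak with GW3965 or at day 16. For Meis2 it was RA (91.7), LG268 (75.6) and day 8 (16.2 and 69.6, 42.9 ± 37.8 SD, n = 2). The gap between LG268 and day 8 is within the day 8 SD for Meis2. At day 8 both Meis1 values lay above both Meis2 values. For ES lists no spread is known, so the order of RA, control and LG268 has no error to be read against.

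Set against the control, 6 of 7 RA peaks of the 2 genes overlapped no control RXR peak, where 60.4% of all RA peaks overlapped none. With LG268 3 of 4 overlapped none, where the share over all peaks was 62.4%. With GW3965, where the 2 genes had no peak, it was 73.8%. As a gene, Meis2 had peaks with RA and with LG268 and none in the control, as did 6.57% and 7.19% of all genes. Neither gene gained its first peak with GW3965, where 3.97% of genes did. The RA list is longer than the control list, and low peaks made up most of the 6. At a score of at least 7.65, the control median, 3 RA peaks were left and 2 of them had no control peak, those at Meis1 +130 kb and Meis2 +43 kb.

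Most RXR peaks were not covered by H3K27ac, at Meis1 and Meis2 as over all genes. Of the RXR peaks of the same treatment, H3K27ac covered 0 of 1 in the control, 0 of 4 with LG268 and 1 of 7 with RA, where it covered 32.0%, 24.5% and 27.8% of all RXR peaks. With GW3965 there was no RXR peak to cover, and 18.2% of all peaks were covered. The counts at Meis1 and Meis2 are too small to be told apart from these shares, and no difference was tested. The 1 covered peak was that at Meis2 +43 kb. An RA H3K27ac peak (116020800 to 116021260, score 6.31, rank 9343 of 14958) overlapped it by 170 bp. The GW3965 H3K27ac list also had a peak over this site (116021265 to 116021519, score 5.02, rank 13514 of 17759), which overlapped the RXR peak by 100 bp with RA, 56 bp with LG268 and 71 bp in the second day 8 replicate. GW3965 itself had no RXR peak there. In the control the nearest H3K27ac peak was 11.9 kb from the RA RXR peak, and with LG268 it was 439.1 kb away.

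**Figure D4:**
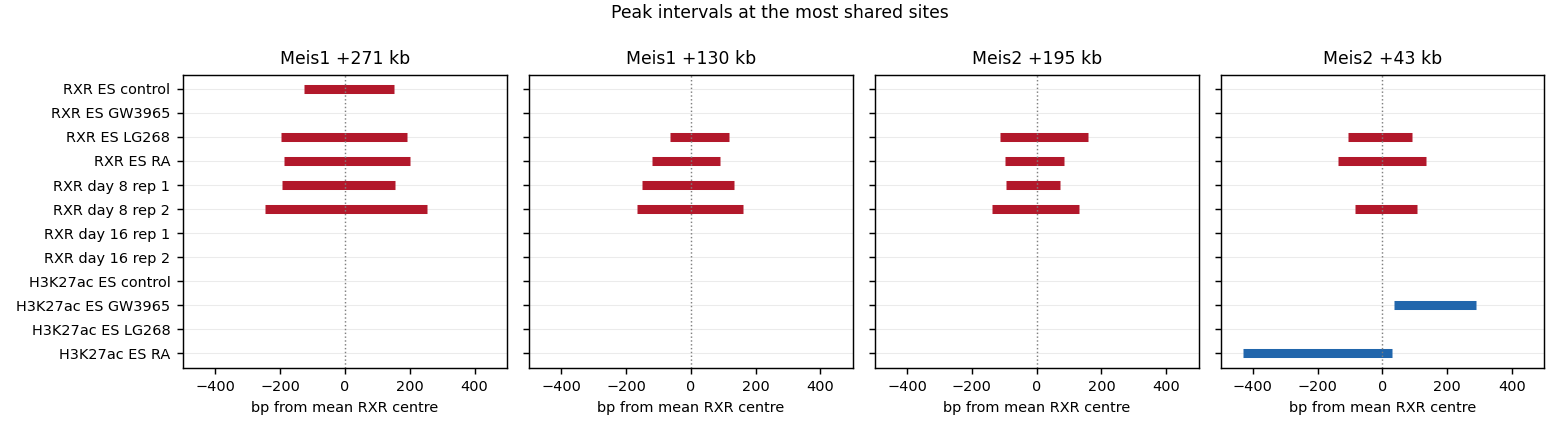
Extent of each peak, in bp from the mean RXR peak centre, at the 2 sites of each gene found in the most RXR lists; red bars are RXR peaks and blue bars H3K27ac peaks, with 1 row per list. The RXR peaks of different lists lie over each other at all 4 sites, and H3K27ac bars (RA and GW3965) appear at Meis2 +43 kb only.

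At Meis1 the H3K27ac regions found in all 4 ES lists were at the promoter and in intron 7. The promoter region (19019091 to 19020133) had a highest score of 11.3 in the control (rank 7802 of 21418), 9.60 with GW3965 (rank 7499 of 17759), 12.6 with LG268 (rank 2685 of 12472) and 8.77 with RA (rank 6461 of 14958). The intron 7 region at +60.9 kb (18957741 to 18958582) had highest scores of 10.1, 5.95, 8.76 and 3.18 in the same order. The control and GW3965 lists had separate peaks within it, and their highest did not overlap the RA peak (18957791 to 18958055). The control and GW3965 peaks that did overlap the RA peak had scores of 5.82 and 3.85. The RA peak was among the lowest of its list, at rank 14351 of 14958. The RXR peak found with RA alone at +62 kb lay 474 bp from it. A region at -8.1 kb (19026679 to 19027429) had peaks with GW3965 (6.87), LG268 (3.60) and RA (5.49) and none in the control. Over both genes together, 2 of 8 control peaks and 1 of 6 GW3965 peaks lay within 1 kb of the TSS. With LG268 it was 1 of 3 and with RA 1 of 6, and all of these peaks were at Meis1. Over all H3K27ac peaks the shares were 63.5%, 67.1%, 77.6% and 74.4%.

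The +271 kb site of Meis1, highest for RXR, lay at least 122.9 kb from H3K27ac in every ES list. H3K27ac was not mapped at day 8, when its RXR percentile was highest. The +130 kb site lay at least 17.2 kb from H3K27ac, and the Meis2 +195 kb site at least 139.5 kb. The CpG-annotated region at +147.2 kb (18871616 to 18871970) was acetylated in the control (4.71) and with GW3965 (9.21), 163 bp at the nearest from the RXR peak of the second day 8 replicate. At Meis2, an exon 2 region at +1.3 kb (116063103 to 116063495) had H3K27ac in the control (9.39) and with RA (4.84). The lowest control peaks stood at Meis1 +147.6 kb (3.32) and Meis2 +55.5 kb (4.12), and the RA list alone had one at Meis1 +415.3 kb (3.71), in an LTR element. No H3K27ac peak of Meis2 was found with LG268, where 0 of 12472 allows up to 0.0241%.

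Some H3K27ac peaks of the 2 genes were in a ligand list and not in the control, and the reverse. With RA, 3 of 6 H3K27ac peaks of the 2 genes overlapped no control peak, where 12.0% of all RA peaks did not. With GW3965 2 of 6 (16.9% over all) and with LG268 1 of 3 (8.74%) did not. In turn 4 of 8 control peaks were missing with RA (39.8% over all), 4 of 8 with LG268 (48.2%) and 3 of 8 with GW3965 (31.2%). The 3 RA peaks are those at Meis1 -8.1 kb and +415.3 kb and Meis2 +43.6 kb. The counts are small and none was tested.

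Between the differentiation days the sites were found at day 8 and not at day 16. Day 8 held 9.0 ± 2.83 peaks (SD, n = 2), 6.0 ± 1.41 at Meis1 and 3.0 ± 1.41 at Meis2, and day 16 held 0 in both replicates. Both day 8 libraries lie above both day 16 libraries, and the smallest two-sided p that an exact permutation test of 2 against 2 can give is 0.333, so none was run. The day 16 lists are also shorter. Of the day 8 peaks shared by both replicates 29.9% overlapped a day 16 peak, against 0 of 7 here. The deposited peak numbers skip 38.0% and 38.2% of numbers at day 16, against 18.6% and 13.9% at day 8. Between the peaks flanking Meis2, 6 and 4 numbers are skipped at day 16, over 29.35 and 18.75 Mb. At day 8, 0 are skipped, but over only 2.756 Mb in each replicate, so these counts cannot be compared directly. Between the peaks flanking Meis1, 0 are skipped on either day. Whether a skipped number lay at Meis2 is not known, and its part in the absence was not tested. All 7 peaks of the first day 8 replicate were found in the second, where 85.9% of all its peaks were, and 7 of 11 peaks of the second were in the first (48.0% over all). Both genes had peaks in both replicates, as did 5.63% of all genes. Of the 7 shared sites 3, at Meis1 +135 and +144 kb and Meis2 -2.2 kb, overlapped no ES RXR peak, a share that was 42.0% over all shared peaks.

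Other TALE genes had an RXR peak in at most 4 of the 8 lists, against 5 for Meis1 and 4 for Meis2. Of 16 TALE genes other than Meis1 and Meis2, 10 had an RXR peak in some list: 2 in the control, 2 with GW3965, 4 with LG268, 3 with RA, 3 and 7 at day 8, and 0 and 1 at day 16. Only 14 of the 16 are among the 14490 genes to which the shares over all genes, given above, refer. Pbx2 and Pbx3, genes for partners of MEIS proteins, reached 16.1 with RA (rank 292, 544 bp from the TSS) and 12.8 at day 8. In the second day 8 list, Irx1 reached 22.7 (rank 415 of 2044), Tgif2 11.8 (rank 896) and Irx3 4.47 (rank 1818). Pknox2 reached 11.6 with LG268 (rank 450 of 2089). With GW3965, Tgif1 reached 10.5 (rank 169 of 940) and Irx4 5.22 (rank 622). Pknox1 reached 8.22 in the second day 16 list (rank 279 of 409). Each is the gene's own highest score over the lists, whose scales may differ.

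Some Hox genes of the anterior paralogue groups, which MEIS proteins partner, had day 8 peaks that stood near the top of the list, as the highest of Meis1 did. Of 12 Hox genes of groups 1 to 4, of which 9 are among the 14490, 3 had an RXR peak in the control, 1 with GW3965, 4 with LG268, 5 with RA, 8 and 8 at day 8, and 3 and 1 at day 16. In the second day 8 list Hoxc4 had a score of 103.6, Hoxb3 87.5 and Hoxa2 86.3, near the 112.8 of Meis1 +271 kb. Lower scores were 68.0 (Hoxa4), 45.2 (Hoxb1) and 14.5 (Hoxb2) in the same list, and Hoxb4 was highest in the first day 8 list, at 18.2. Unlike either Meis gene, Hoxb3 had a peak in both day 16 lists and Hoxa2 and Hoxc4 in 1.

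Genes were also ranked by how like their pattern was to that of Meis1 or Meis2, as the mean absolute difference in the percentile of the highest peak over the 8 RXR lists, among 3635 other genes. The nearest to Meis1 were Skap1 (1.49 percentile points), Hoxa5 (4.00), Caap1 (4.72) and Nudt16 (5.61). Each had peaks in the same 5 lists as Meis1. Skap1, whose gene lies beside the Hoxb cluster, had scores of 12.7 in the control, 8.67 with LG268, 37.1 with RA, and 71.7 and 99.8 at day 8. Hoxa5 had 58.6 and 81.6 at day 8, at -103 and -64 bp from its TSS.

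For Meis2 the nearest were Ndnl2 (3.42), Gtf2i (3.95), Klhl31 (4.46), Ccne1 (5.02) and Nuak1 (5.38). Ndnl2 and Ccne1 had peaks in the same lists as Meis2. Gtf2i also had a control peak, and Klhl31 and Nuak1 had none in the first day 8 replicate. Ccne1, which encodes cyclin E1, had scores of 9.89 with LG268, 10.0 with RA, and 5.57 and 12.8 at day 8. The 8 lists share cells and antibody, and likeness of pattern is a description.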

How the data were processed

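RXR and H3K27ac ChIP-seq peaks were taken from 12 deposited lists, 1 per library, in 10 groups as labelled. Per the labels' protocols, chromatin was crosslinked with disuccinimidyl glutarate and then formaldehyde. BWA 0.6.0, HOMER 4.2 and MACS2 2.0.10 and the builds mm9 and mm10 are named in the submitters' processing notes without roles, and the annotation was made against mm10, per the file headers. The values used are the authors' peak score, whose scale between libraries is not stated, and the deposited distance to the TSS, nearest gene and location class. The score was used by rank within a list, except in the mean and SD of day 8 replicates and in a threshold of 7.65. The highest score of a TALE or Hox gene was also picked over the lists without regard to scale. Numbering of peaks skips 3.60% to 38.2% of numbers per list, by a step not given in the sources used here. The TSS implied by the distances lay within 2 bp of that of RefSeq (GRCm38.p6) for 37 of 37 Meis1 and 13 of 16 Meis2 peaks.

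Computed here were overlaps of at least 1 bp, ranks, percentiles, shares with exact 95% intervals, distances between peaks, and motif matches in RefSeq promoter windows of 300 bases. A count of 0 was read as allowing 3 counts. No genome sequence was used here, so the sites themselves were not scanned. No test between conditions was made. The 2 genes and the gene lists were chosen with earlier results of these data known. Genes were named by a rule: every peak of the 2 genes, 16 other TALE and 12 Hox genes with an RXR peak, the genes on either side, and the 5 genes most like each. Some genes that the rule takes are not reported here. On simulated data the overlap count found 300 of 300 planted overlaps in 1000 peaks. Alternatives were distance limits, score thresholds, equal list lengths, other joining rules, replicates left out and a replicate block. The software was numpy 2.4.6, scipy 1.17.1, pandas 2.3.3 and, for plots, matplotlib 3.10.9, under Python 3.11.15.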

Additional observations from a re-analysis of the deposited data

How the results depend on the processing

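Peak counts of the 2 genes depended most on the distance limit. Within 100 kb of the TSS they were 0 in the control, 1 with LG268, 2 with RA, and 1 and 4 at day 8. Counting every peak between the neighbouring protein-coding genes gave 3 in the control, 1 with GW3965 and 1 in the first day 16 replicate, where nearest-gene peaks numbered 1, 0 and 0; those added are named Spred2. With ES lists cut to 940 peaks, RA kept 3 peaks, 2 of them without a control peak. At a score of at least 7.65, a threshold chosen after seeing the data, 2 peaks were left with LG268, 3 with RA (2 without a control peak) and 4 in the first day 8 replicate. H3K27ac within 1 kb counted 2 RXR sites in place of 1, and H3K27ac lists cut to 12472 peaks left 3 control peaks of 8. Sites at day 8 numbered 7 to 11 with a replicate left out. Over all 12 lists, 2 of the 5 genes most like Meis1 and 2 of the 5 most like Meis2 were named again. The number of sites, 13, was the same under 3 other joining rules. Of 64 values under an alternative 45 stayed within 1.5 times the main value (or at the same 0). Day 8 minus day 16 was 9.0 peaks with and without the replicate block, with no test of either, and 7 to 11 with a replicate left out. Depth is unknown, so a site without a peak may lie below detection.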

Other observations

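Beside Meis2, past its 3′ end, further RXR peaks carried the name of the microRNA gene Mir1951 as nearest gene. The highest of them that was also found in ES cells lay 84.0 kb from the end of Meis2 (chromosome 2, 115776942 to 115777250), in the last exon of BC052040 in the files. Its score was 6.97 with RA (rank 1039 of 1970) and 14.1 and 20.8 at day 8 (ranks 395 of 1154 and 471 of 2044), with no peak in the control, GW3965, LG268 or day 16 lists. The RefSeq window at the start of the long non-coding RNA Gm52524, 190 to 202 bp from the peak centres, overlaps this site. Within the part common to all 3 peaks it holds a direct repeat of the receptor hexamer with 5 bases between, which 0.0983% of windows hold. It lies on the minus strand at chr2:115777106-115777122 (RefSeq, GRCm38.p6), and capitals mark the hexamers.
Direct repeat at Gm52524: GGTTCAtctcaAGTTCA

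A second such site 75.2 kb from the end of Meis2 (115785717 to 115786068) had scores of 6.82 with LG268 and 3.28 with RA. Another, 143 kb away (115718054 to 115718268), had 8.76 and 20.8 at day 8. On the upstream side of Meis1, peaks named Spred2 about 4 kb upstream of that gene were found in the control (5.44), with GW3965 (9.73), LG268 (19.0) and RA (14.4), and in the first day 16 replicate (5.55). That is a pattern over the lists which no site of Meis1 or Meis2 had. A neighbouring Spred2 site (chromosome 11, 19919512 to 19919733) had peaks in the control (5.14), with RA (14.6) and in the second day 8 replicate (12.6).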
